A study of Zea mays with 12 samples.

Results

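The genes of the maize mitochondrial genome were followed in whole seeds of the *ereb92* knockout and of its wild type KN5585 during the first hours of imbibition, the water uptake with which germination starts. Members were the genes placed on the mitochondrial chromosome (Mt) with at least 10 counts in total over the 12 libraries, which held for 110 of the 230 Mt genes and of the 55529 genes in the table. Of the other 120 Mt genes, 85 had 0 counts, and together these 120 genes had 128 counts against 505018 on the members. At the limit, 5 members had exactly 10 counts and 2 genes just outside it had 9.

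The 4 groups were *ereb92*_6h, *ereb92*_0h, KN5585_6h and KN5585_0h, with 3 libraries each. All were whole maize seeds kept in the dark at 28 °C on wet filter paper for 6 h, or sampled at 0 h. The mutants and the wild type were treated alike, the libraries of a group are named as biological repeats, and the mutant is a single line, *ereb92-6*, made by knocking out *ZmEREB92*, which codes for an ethylene response factor. The question behind the design was how loss of this factor alters RNA levels in germinating seeds.

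Mitochondria of plants keep a small genome of their own. It codes for part of the respiratory chain, namely subunits of complex I (nad), complex III (cob), complex IV (cox) and the ATP synthase (atp), for proteins that attach heme to cytochrome c (ccm), for some ribosomal proteins, for rRNAs and tRNAs, and for many open reading frames (ORFs) without a known role. Most other mitochondrial proteins are coded in the nucleus and imported. Mitochondria of dry seeds are poorly developed, and respiration starts again soon after water is taken up. Most transcripts of plant mitochondria carry no stable poly(A) tail, whereas these libraries were enriched for poly(A) RNA on oligo(dT) beads, so the counts describe the mitochondrial RNA that was captured and not all that was present. In whole seeds, fewer cells of a type and less RNA per cell cannot be told apart.

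The library totals lay between 12771663 and 15383586 counts. Replicates of a group correlated at 0.828 to 0.948 (Pearson's r of log values across genes, which are not independent replicates), and none were near copies of each other. Between 27689 and 32080 genes had counts in a library, except in KN5585_6h replicate 1 with 23104. The row that the table names AP2-EREBP-transcription factor 92 (Zm00001d000339, on an unplaced contig), the identifier given for *ZmEREB92* in the study's primer list, had 4146, 3115 and 895 counts in *ereb92*_6h, 126, 17 and 82 in *ereb92*_0h, 205, 71 and 374 in KN5585_6h, and 96, 25 and 27 in KN5585_0h. An edit of the coding sequence need not lower the RNA, so these counts do not check the genotype labels. Zein genes, the storage proteins of the endosperm, summed to 10.5 to 85.4 counts per 1000000 (CPM, with TMM-scaled library sizes) in *ereb92*_6h, 49.7 to 111 in *ereb92*_0h, 23.1 to 102 in KN5585_6h and 130 to 581 in KN5585_0h (21 genes). Oleosin and late embryogenesis genes, marking the embryo and aleurone, summed to 18220 to 36700 CPM in *ereb92*_6h and 32020 to 68030 in *ereb92*_0h. In KN5585_6h they summed to 17670 to 61000 CPM and in KN5585_0h to 43970 to 79370. The 17 chlorophyll-binding and Rubisco small subunit genes summed to between 12.9 and 39.1 CPM. The part of differing tissue shares in the results below was not tested.

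Of the 110 members, 61 were ORFs, 9 coded for ribosomal proteins, 6 were atp, 6 nad, 4 ccm and 3 cox genes, and 1 each was *cob* and the maturase gene *mat-r*. There were further 3 rRNA genes, 6 tRNA genes, 4 group II intron features, 5 genes named as derived from the chloroplast and 1 unnamed locus. The counts were concentrated in few of them. The 20 members with at least 1000 counts comprised *rrn26*, *rrn18*, the 3 cox genes, *nad4*, *atp4*, *atp6*, *ccmFN*, *ccmC*, *mat-r*, 4 ribosomal protein genes and 5 ORFs, while 66 members had fewer than 100 counts in all. *nad1*, *nad2* and *nad5*, which in plants are pieced together by trans-splicing, have no row on Mt in the table. It holds 6 nad genes there, all of them members, so the nad class is incomplete. Of the members, 105 have a RefSeq locus tag, and all 105 have the same start and end in the table and in RefSeq.

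In each library, the share of counted reads on Mt genes was small and varied widely. It was 0.619%, 0.382% and 0.119% in *ereb92*_6h, 0.0480%, 0.0687% and 0.0631% in *ereb92*_0h, 1.67%, 0.209% and 0.112% in KN5585_6h, and 0.342%, 0.0484% and 0.0325% in KN5585_0h. The mutant groups did not overlap, with all 3 libraries at 6 h above all 3 at 0 h, whereas the KN5585 groups overlapped. On the log2 scale *ereb92*_6h was higher than *ereb92*_0h by 2.36 (SE 0.725) and KN5585_6h than KN5585_0h by 2.06 (SE 1.58). The KN5585 difference was 0.91 without KN5585_6h replicate 1 and 3.10 without KN5585_0h replicate 1. Two-sided exact permutation tests of these shares gave p = 0.1 in *ereb92* and p = 0.3 in KN5585 (0.4 and 0.6 adjusted over 4 comparisons), and 3 libraries against 3 cannot give less than 0.1. For *ereb92*_6h vs KN5585_6h the difference was -0.16 (exact permutation p = 1.0), and for *ereb92*_0h vs KN5585_0h it was -0.46 (exact permutation p = 0.9). Leaving out KN5585_6h replicate 1 turned the first of these to 0.99, leaving out *ereb92*_6h replicate 3 turned it to 0.52, and leaving out KN5585_0h replicate 1 turned the second to 0.58.

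**Figure D1:**
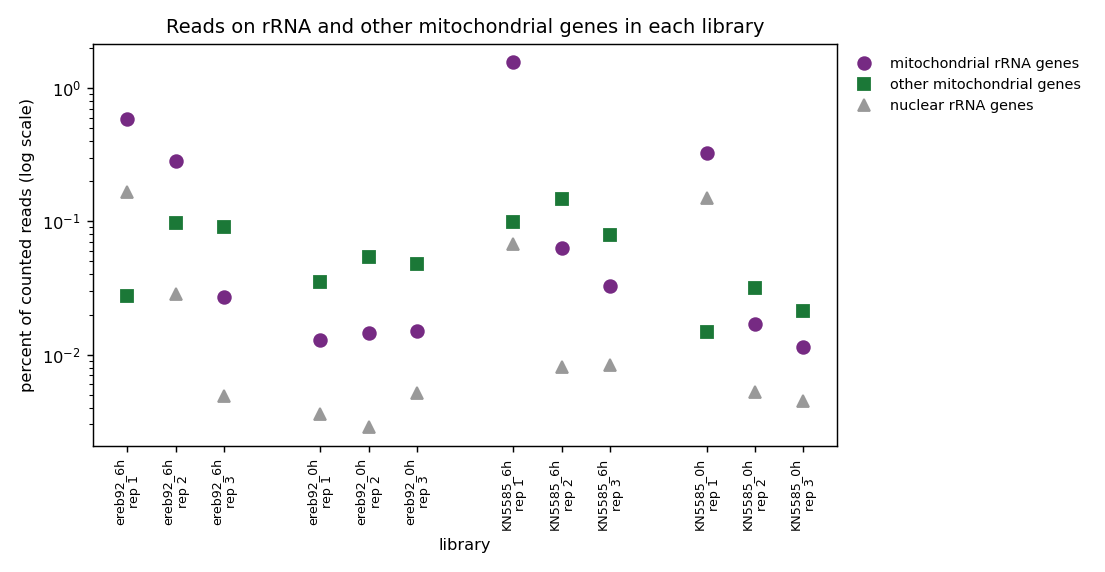
Percent of counted reads (log axis) on mitochondrial rRNA genes (circles), on all other mitochondrial genes (squares) and on nuclear rRNA genes (triangles) in each of the 12 libraries, 1 point per library. Mitochondrial rRNA is above the other mitochondrial genes in 4 libraries, and in the same 4 libraries the nuclear rRNA genes are at their highest.

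Most of this variation came from the rRNA genes *rrn26* and *rrn18*, which code for the large and small subunit rRNAs of the mitochondrial ribosome. rRNA took 95.5%, 74.4% and 22.9% of the mitochondrial counts in *ereb92*_6h, 26.8%, 21.1% and 23.9% in *ereb92*_0h, 94.1%, 29.9% and 29.3% in KN5585_6h, and 95.7%, 35.0% and 35.2% in KN5585_0h. Thus 4 libraries were dominated by rRNA, namely replicate 1 of *ereb92*_6h, KN5585_6h and KN5585_0h, and replicate 2 of *ereb92*_6h. The same 4 libraries had most counts on 307 nuclear rRNA genes, whose share was 0.165% and 0.0283% in *ereb92*_6h replicates 1 and 2, 0.0682% in KN5585_6h replicate 1 and 0.150% in KN5585_0h replicate 1. In the other 8 libraries it was between 0.00285% and 0.00833%. How much rRNA escaped the poly(A) selection in each library, and its part in the values of *rrn26* and *rrn18*, was not tested. The chloroplast genome, with 179 genes, gave 10, 10, 18 and 23 counts in these 4 libraries and 0 to 25 in the others.

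Without the rRNA genes, the order of the groups was different. The mitochondrial share was then 0.0276%, 0.0977% and 0.0914% in *ereb92*_6h, 0.0352%, 0.0543% and 0.0480% in *ereb92*_0h, 0.0988%, 0.147% and 0.0791% in KN5585_6h, and 0.0148%, 0.0315% and 0.0211% in KN5585_0h. By counting error alone each share is known closely, with a 95% exact binomial interval of 0.0141% to 0.0154% for the lowest, KN5585_0h replicate 1. KN5585_6h was above KN5585_0h in every library, and *ereb92*_0h was likewise above KN5585_0h in every library. The mean of log2 shares differed by 2.29 (SE 0.409, 4.90-fold) for KN5585_6h vs KN5585_0h and by 1.08 (SE 0.366, 2.11-fold) for *ereb92*_0h vs KN5585_0h, each with an exact permutation p = 0.1, the smallest possible, and 0.2 after adjustment over 4 comparisons. The mutant groups overlapped, with a difference of 0.48 for *ereb92*_6h vs *ereb92*_0h (SE 0.621, exact permutation p = 0.5). Without *ereb92*_6h replicate 1, the lowest library of its group, it was 1.07 (exact permutation p = 0.1), and without *ereb92*_6h replicate 2 it was 0.16. For *ereb92*_6h vs KN5585_6h it was -0.74 (SE 0.647, exact permutation p = 0.4), and -0.15 without *ereb92*_6h replicate 1. Leaving rRNA out was an alternative for the total share, and as a result of its own it was added after the libraries had been seen.

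Gene by gene, edgeR's quasi-likelihood test was fitted on all genes of each comparison, and a member was called at a Benjamini-Hochberg adjusted p under 0.05 with at least a 2-fold change. A filter on low counts left 34 to 43 members per comparison. Of the 110 members, 45 were tested in at least 1 of the 4 comparisons and 65 in none. A member that passed the filter only through the group in which it was high had to differ, so counts over tested members support nothing on their own. The 20 members with at least 1000 counts were picked by their total over all libraries, and all 20 were tested in every comparison. That total can itself rest on the libraries in which a member was high. *rps1*, for example, had 252, 485 and 213 counts in KN5585_6h and 17, 15 and 8 in KN5585_0h. Counts and medians over these 20 members are therefore given as a description.

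In KN5585_6h vs KN5585_0h, 1 of 37 tested members was up-regulated, which was *cox3*, and 0 were down-regulated, against 0.00449% and 0.0% of all genes tested in these directions. DESeq2 called 13 members up-regulated and 0 down-regulated, against 0.207% and 0.144% of the genes to which it gave an adjusted p. When p was left unadjusted (under 0.05, at least 2-fold), 22 members were higher and 0 lower, against 1.03% and 1.23% of all genes. For 24 members the KN5585_6h libraries lay above all KN5585_0h libraries, and for 0 below, against 4.58% and 5.91% of all genes. Among the 20 members with at least 1000 counts, these numbers were 1 called, 13 higher at the unadjusted p and 13 without overlap, and all 20 had a positive log2 fold change. Their median log2 fold change was 2.35, and that of all genes tested was -0.02. Without any single library of the 6, 0 members were called.

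In *ereb92*_6h vs *ereb92*_0h, 2 of 38 tested members were up-regulated, *rrn26* and *rrn18*, and 0 were down-regulated, against 5.87% and 0.106% of all genes. DESeq2 called 9 up-regulated and 0 down-regulated, against 8.45% and 0.399% of all genes. The unadjusted p gave 11 higher and 0 lower members, against 11.0% and 0.878% of all genes, and 6 members had no overlap upwards and 0 downwards, against 14.7% and 10.1%. Upwards the share of tested members without overlap was near that of all genes. Same-numbered libraries deviated together in this comparison, and when the replicate number was blocked the called members were *atp4* and *rps3* in place of the rRNA genes, against 6.46% of all genes up. Without *ereb92*_6h replicate 1, 7 of 49 tested members were up-regulated (*atp4*, *ccmFN*, *ccmC*, *rps1*, *rps7*, *nad7* and *orf99-d*), against 3.32% of all genes in that fit, and without *ereb92*_6h replicate 2 or any 1 library of *ereb92*_0h 0 were called. The unadjusted count upwards was 26 without *ereb92*_6h replicate 1, against 8.13% of all genes. It was 6 without *ereb92*_6h replicate 3 (12.5% of all genes) or *ereb92*_0h replicate 1 (10.9%). Among the 20 members with most counts the median log2 fold change was 1.01, and 18 were positive.

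**Figure D2:**
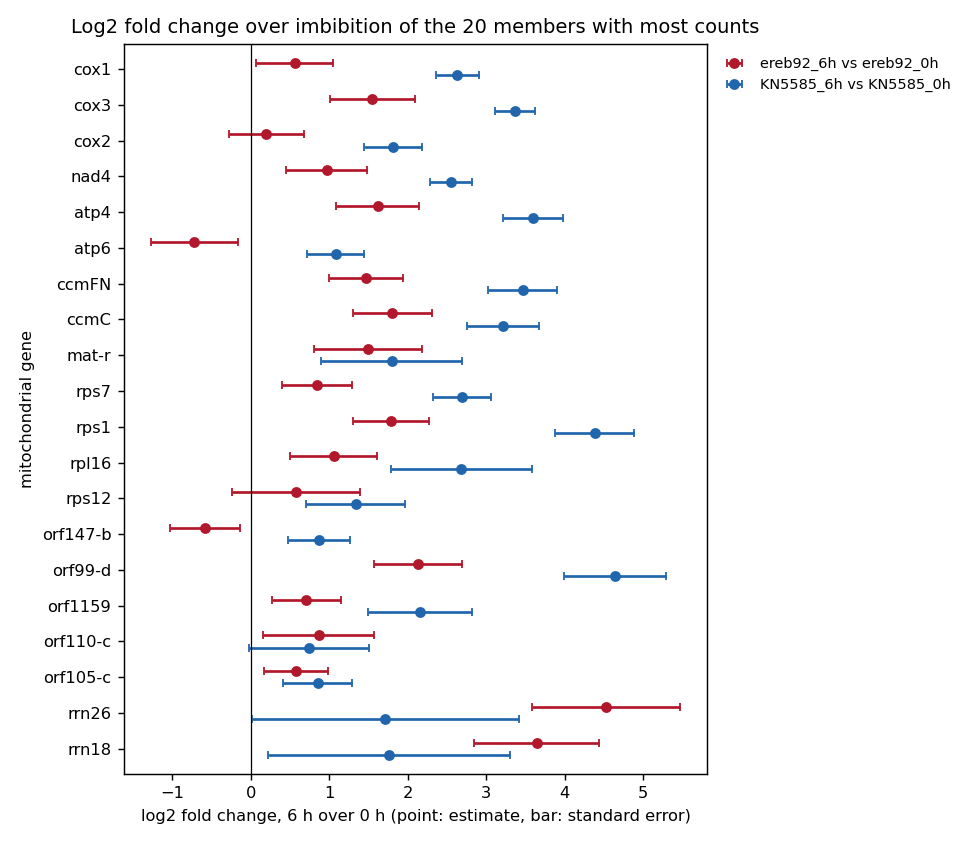
Log2 fold change of 6 h over 0 h (point, with its standard error as a bar) for the 20 members with at least 1000 counts, in *ereb92* (red, upper point of each pair) and KN5585 (blue, lower point), from edgeR fits of each genotype alone. In KN5585 all 20 points are above 0, and in *ereb92* those of *atp6* and *orf147-b* are below 0, while the rRNA genes have the longest bars in KN5585.

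The 3 cox genes code for the core subunits of cytochrome c oxidase, the last complex of the electron transport chain. *cox3* (Mt:441570-442367, minus strand) had 329, 772 and 1283 counts in *ereb92*_6h and 166, 394 and 231 in *ereb92*_0h, against 1551, 1548 and 849 in KN5585_6h and 107, 118 and 116 in KN5585_0h. The KN5585 libraries were far apart between the times, while the mutant libraries overlapped after scaling. The log2 fold change of *cox3* was 3.36 in KN5585 (SE 0.255, edgeR adjusted p = 0.0233) and 1.55 in *ereb92* (SE 0.538, edgeR adjusted p = 0.169). *cox3* thus rose in KN5585, where it averaged 91.4 ± 14.9 CPM at 6 h and 8.97 ± 1.12 CPM at 0 h (SD, n = 3 each). The call was lost when any single KN5585 library was left out (edgeR adjusted p = 0.0542 to 0.571), with log2 fold changes that stayed between 3.27 and 3.48. It was also lost with replicates blocked by number (edgeR adjusted p = 0.347) and in a single fit on all 12 samples (edgeR adjusted p = 0.0833). It held without both rRNA-rich KN5585 libraries (3.38, edgeR adjusted p = 0.0418).

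*cox1* (Mt:354865-356451, plus strand) was the protein-coding member with most counts. It had 986, 4956 and 2722 counts in *ereb92*_6h, 1573, 2345 and 1731 in *ereb92*_0h, 4004, 5587 and 3321 in KN5585_6h and 488, 940 and 518 in KN5585_0h. In KN5585 its log2 fold change was 2.63 (SE 0.270, edgeR adjusted p = 0.0795), with all 6 h libraries above all 0 h libraries. In *ereb92* it was 0.56 (SE 0.488, edgeR adjusted p = 0.62), and the groups overlapped. *cox2* averaged 26.7 ± 11.4 CPM in KN5585_6h and 7.70 ± 1.52 in KN5585_0h, and 16.1 ± 7.30 in *ereb92*_6h and 14.3 ± 7.25 in *ereb92*_0h (SD, n = 3 each). Its log2 fold changes were 1.81 (SE 0.373) in KN5585 and 0.20 (SE 0.482) in *ereb92*, neither past the adjusted p of edgeR, and the second turned negative without *ereb92*_6h replicate 2 or *ereb92*_0h replicate 1.

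**Figure D3:**
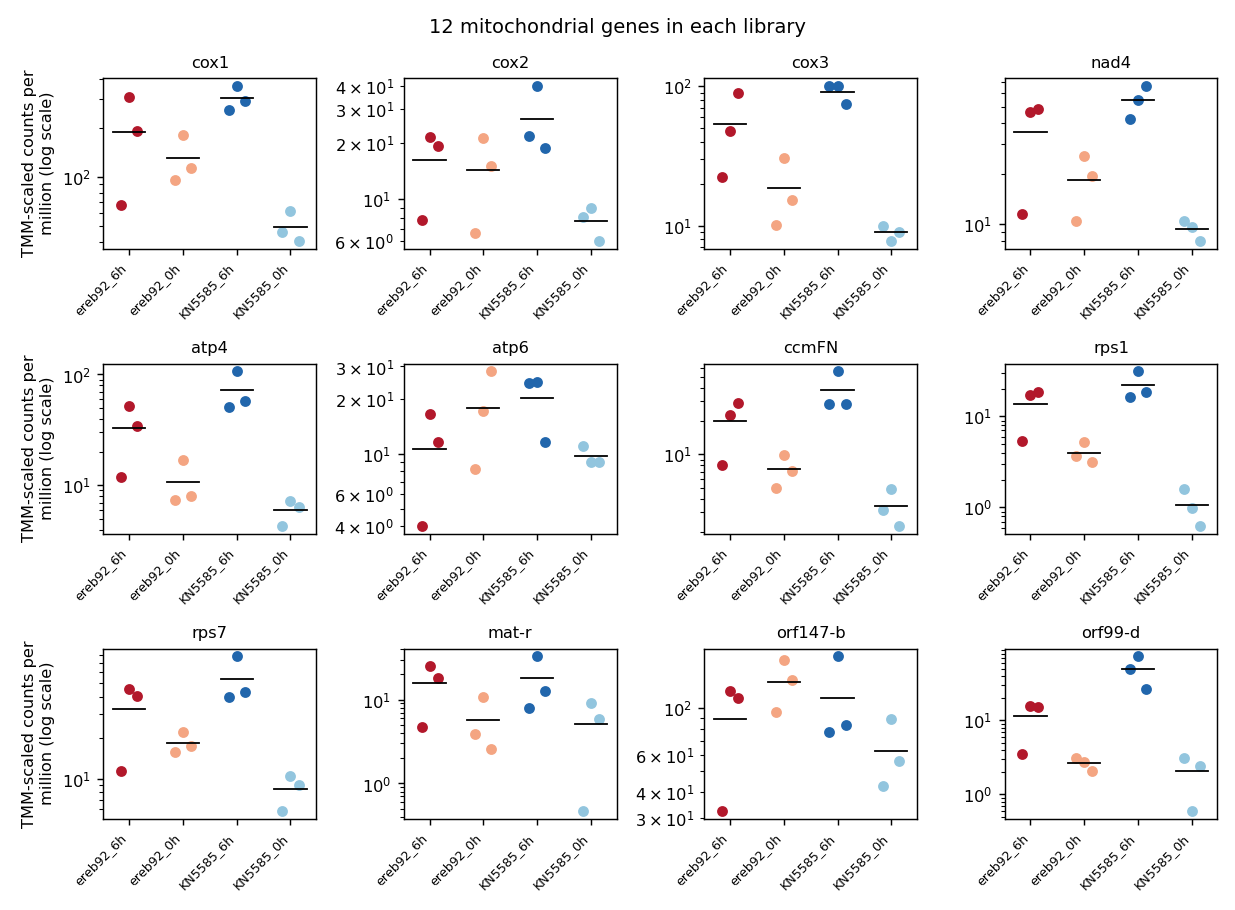
TMM-scaled CPM (log axis, with its own range in each panel) of 12 mitochondrial genes, with 1 point per library and a line at the mean of each group of 3. For *cox1*, *cox3*, *nad4* and *atp4* the 3 KN5585_6h points lie above the 3 KN5585_0h points, and *ereb92*_6h replicate 1 (leftmost point of its group) is the lowest of its group in all 12 panels.

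The nad genes code for subunits of complex I, which takes electrons from NADH. *nad4* carried most of their counts, with 169, 742 and 692 in *ereb92*_6h, 174, 327 and 294 in *ereb92*_0h, 653, 850 and 756 in KN5585_6h, and 112, 146 and 102 in KN5585_0h. The 3 KN5585_6h libraries were close to each other and above every library at 0 h of either genotype. The log2 fold change of *nad4* was 2.55 in KN5585 (SE 0.273, edgeR adjusted p = 0.0795) and 0.97 in *ereb92* (SE 0.519, edgeR adjusted p = 0.393). *nad7* had 76, 186 and 45 counts in KN5585_6h and 7, 8 and 4 in KN5585_0h (log2 fold change 3.79, SE 0.698), and 25, 164 and 97 in *ereb92*_6h and 29, 28 and 39 in *ereb92*_0h (1.54, SE 0.612). *nad9* had 31, 35 and 35 counts in KN5585_6h and 4, 0 and 0 in KN5585_0h. *nad6*, *nad3* and *nad4L* had 119, 65 and 13 counts over all libraries, and are given as totals only.

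The atp genes code for subunits of the ATP synthase. *atp4* had 176, 828 and 493 counts in *ereb92*_6h, 122, 221 and 122 in *ereb92*_0h, 788, 1657 and 666 in KN5585_6h, and 46, 110 and 82 in KN5585_0h. Its log2 fold change was 3.59 in KN5585 (SE 0.380, edgeR adjusted p = 0.0795) and 1.62 in *ereb92* (SE 0.530, edgeR adjusted p = 0.143, and 0.0305 with replicates blocked by number). *atp6*, which codes for the channel subunit, differed from it in the mutant. It averaged 10.7 ± 6.26 CPM in *ereb92*_6h and 17.9 ± 10.0 in *ereb92*_0h, against 20.2 ± 7.52 in KN5585_6h and 9.68 ± 1.12 in KN5585_0h (SD, n = 3 each). Its log2 fold change was -0.72 (SE 0.559) in *ereb92*, where the groups overlapped, and 1.08 (SE 0.367) in KN5585, where they did not, neither past the adjusted p of edgeR. *atp1-a1*, 1 of 2 annotated copies of the gene of the alpha subunit, had 106, 143 and 47 counts in KN5585_6h and 4, 2 and 1 in KN5585_0h, with a log2 fold change of 5.10 (SE 0.787, edgeR adjusted p = 0.329). How reads matching both copies were counted is not stated, so the values of *atp1-a1* and *atp1-a2* are uncertain. *atp8* and *atp9* had 273 and 16 counts in all.

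*cob*, which codes for cytochrome b of complex III, had 10, 34 and 36 counts in *ereb92*_6h, 18, 21 and 19 in *ereb92*_0h, 89, 85 and 33 in KN5585_6h, and 2, 23 and 12 in KN5585_0h. After scaling, KN5585_6h was above each of the groups *ereb92*_6h and KN5585_0h without overlap. The log2 fold changes were 2.41 (SE 0.803) for KN5585_6h vs KN5585_0h and -1.46 (SE 0.676) for *ereb92*_6h vs KN5585_6h, neither past the adjusted p of edgeR. The ccm genes *ccmFN* and *ccmC* had log2 fold changes of 3.46 (SE 0.434) and 3.21 (SE 0.456) in KN5585 and of 1.46 (SE 0.472) and 1.80 (SE 0.499) in *ereb92*. For *ccmC* both genotypes had all 6 h libraries above all 0 h libraries, with 57, 210 and 146 counts in *ereb92*_6h against 32, 32 and 53 in *ereb92*_0h, and 214, 257 and 143 in KN5585_6h against 9, 29 and 24 in KN5585_0h. *mat-r*, coding for the maturase that aids intron splicing, overlapped between the times in both genotypes, with 5, 138 and 76 counts in KN5585_0h alone.

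The ribosomal protein genes code for part of the mitochondrial ribosome, with the rest imported. *rps1* had 78, 272 and 265 counts in *ereb92*_6h, 61, 67 and 48 in *ereb92*_0h, 252, 485 and 213 in KN5585_6h, and 17, 15 and 8 in KN5585_0h. After scaling the groups did not overlap between the times in either genotype, nor between the genotypes at 0 h. Its log2 fold change was 4.38 in KN5585 (SE 0.499, edgeR adjusted p = 0.0997) and 1.78 in *ereb92* (SE 0.487, edgeR adjusted p = 0.0804). *rps7*, with most counts of this class, averaged 54.0 ± 21.5 CPM in KN5585_6h and 8.42 ± 2.37 in KN5585_0h, and 32.6 ± 18.5 in *ereb92*_6h and 18.4 ± 3.35 in *ereb92*_0h (SD, n = 3 each). *rps12* and *rpl16* overlapped between the times in *ereb92*, and *rps12* did so in KN5585 as well. The span of *rps3* shares 152 bases with *rpl16* on the same strand and 330 bases with *orf109-a* on the other. Reads on bases of both *rps3* and *rpl16* cannot be given to 1 gene. The span of *rps3* (Mt:161140-164661) is longer than its gene length of 1680 bases. Whether the bases shared with *orf109-a* were counted for *rps3* was not tested. In KN5585, 5 of the 7 ribosomal protein genes tested were higher at 6 h without overlap, and in *ereb92* 2 of 7, against 4.58% and 14.7% of all genes. A gene that passed the filter only through the 6 h libraries had to differ, so these counts support nothing on their own.

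Among the ORFs, the counts were dominated by *orf147-b* with 17285 in all, and their behaviour was mixed. *orf147-b* (Mt:356474-356917, minus strand) had 473, 1942 and 1603 counts in *ereb92*_6h, 1581, 2212 and 2066 in *ereb92*_0h, 1199, 2746 and 954 in KN5585_6h, and 453, 1337 and 719 in KN5585_0h. The times overlapped in both genotypes, with log2 fold changes of -0.58 (SE 0.448) in *ereb92* and 0.87 (SE 0.400) in KN5585. Per length it was among the most abundant members, with a mean of 139 ± 52.1 FPKM (a level corrected for gene length and library size) in KN5585_0h, where *cox1* had 30.9 ± 7.06 FPKM (SD, n = 3 each). *orf99-d* had 51, 252 and 214 counts in *ereb92*_6h, 52, 35 and 31 in *ereb92*_0h, 776, 1134 and 300 in KN5585_6h, and 33, 9 and 31 in KN5585_0h. It was higher at 6 h in both genotypes without overlap, with log2 fold changes of 2.12 (SE 0.562) in *ereb92* and 4.64 (SE 0.653) in KN5585, and lower in *ereb92*_6h than in every KN5585_6h library (-2.19, SE 0.602, edgeR adjusted p = 0.145). *orf110-c* and *orf105-c* overlapped between the times in both genotypes. *orf1159* did so in *ereb92*, and in KN5585 all its libraries at 6 h were above those at 0 h. Of the 61 ORFs, 10 could be tested in KN5585, of which 5 had no overlap upwards (4.58% of all genes), and 12 in *ereb92*, of which 1 was higher at 6 h without overlap (14.7%). *orf129-a*, with 35, 30 and 22 counts in KN5585_6h and 1, 1 and 3 in KN5585_0h, passed the filter through 6 h alone. These numbers of ORFs therefore support nothing on their own.

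*cox1* and *orf147-b* lie end to end on opposite strands, 22 bases apart. Whether the counting used strand is not stated, and reads running past the end of either gene cannot be told apart from reads of its neighbour. Their count ratio, *cox1* over *orf147-b*, was 2.08, 2.55 and 1.70 in *ereb92*_6h, 0.995, 1.06 and 0.838 in *ereb92*_0h, 3.34, 2.04 and 3.48 in KN5585_6h, and 1.08, 0.703 and 0.720 in KN5585_0h. All 6 libraries at 6 h were above 1.6 and all 6 at 0 h below 1.1. A ratio within a library does not depend on the scaling of that library, but this pair was chosen after its values had been seen and the ratio is given as a description. Whether the ratio varies with the rRNA content of a library was not tested. The neighbours *rps1* and *ccmFN*, 140 bases apart on 1 strand, had ratios of 0.642 to 0.743 in *ereb92*_6h and 0.444 to 0.744 in *ereb92*_0h, and of 0.557 to 0.651 in KN5585_6h and 0.203 to 0.500 in KN5585_0h.

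The classes of genes were also set against the mitochondrial counts without rRNA. ORFs took 25.4% to 28.1% in *ereb92*_6h and 37.5% to 41.4% in *ereb92*_0h, and 19.2% to 27.8% in KN5585_6h and 33.8% to 48.2% in KN5585_0h. The ccm genes took 4.23% to 5.04% in *ereb92*_6h and 2.22% to 2.57% in *ereb92*_0h, and 5.13% to 5.48% in KN5585_6h and 1.91% to 2.62% in KN5585_0h. The ccm share was higher at 6 h without overlap in both genotypes. The ORF share was lower at 6 h without overlap in both, and this rested on *orf147-b*. Without that gene, in an alternative added after the data had been seen, the other ORFs took 12.7%, 12.4% and 15.4% in *ereb92*_6h and 12.03%, 9.77% and 11.6% in *ereb92*_0h, and 13.1%, 15.3% and 9.73% in KN5585_6h and 10.9%, 18.3% and 23.7% in KN5585_0h. All 3 *ereb92*_6h libraries were then above the *ereb92*_0h libraries, and the KN5585 groups overlapped. The ribosomal protein genes took 11.2% to 14.99% in *ereb92*_6h and 8.72% to 9.91% in *ereb92*_0h, and 9.75% to 12.4% in KN5585_6h and 7.18% to 8.87% in KN5585_0h. The cox genes took 34.0% to 40.5% in *ereb92*_6h and 30.9% to 37.7% in *ereb92*_0h, which overlapped, and 35.3% to 44.9% in KN5585_6h and 24.3% to 34.3% in KN5585_0h, which did not. The nad genes took 5.78% to 6.78% in *ereb92*_6h and 4.18% to 4.94% in *ereb92*_0h, which did not overlap. In KN5585_6h they took 5.01% to 8.54% and in KN5585_0h 3.55% to 6.40%, which overlapped. The atp genes took 5.86% to 7.99% in *ereb92*_6h and 5.24% to 8.25% in *ereb92*_0h. In KN5585_6h they took 8.61% to 10.2% and in KN5585_0h 5.82% to 9.02%. The times overlapped for atp in both genotypes. These shares are parts of a whole, and no test was run on them.

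**Figure D4:**
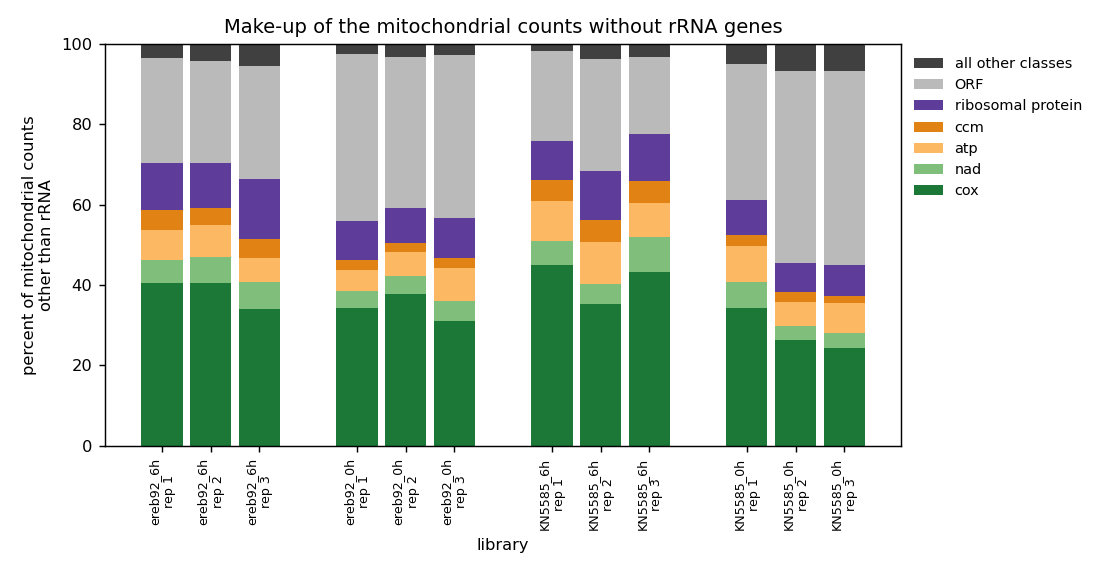
Percent of the mitochondrial counts other than rRNA (stacked bars, summing to 100) taken by each class of genes in each of the 12 libraries. The ORF part is between 19.2% and 28.1% in the 6 libraries at 6 h, and between 33.8% and 48.2% in the 6 libraries at 0 h.

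The genotypes were also compared at each time. In *ereb92*_0h vs KN5585_0h, edgeR called 0 of 34 tested members in either direction, against 0.168% up and 0.0973% down among all genes, and DESeq2 called 2 up-regulated (*cox1* and *rps7*) and 0 down-regulated, against 1.19% and 1.22%. At the unadjusted p, 10 members were higher and 4 lower, against 2.68% and 3.26% of all genes (3 higher and 1 lower without *ereb92*_0h replicate 2, against 2.83% and 3.32%), and 14 had no overlap upwards and 1 downwards, against 9.26% and 7.5%. The members higher without overlap included *cox1*, *cox3*, *nad4*, *nad7*, *atp4*, *ccmFN*, *ccmC*, *rps1*, *rps7* and *orf147-b*. *cox1* had a log2 fold change of 1.37 (SE 0.286, edgeR adjusted p = 0.133) and *rps1* of 1.88 (SE 0.526, edgeR adjusted p = 0.277). The rRNA genes went the other way, with -3.62 (SE 1.31) for *rrn26* and -2.78 (SE 1.07) for *rrn18*, and rested on KN5585_0h replicate 1. *rrn26* had 1368, 1396 and 1494 counts in *ereb92*_0h, against 35012 in that library and 1719 and 995 in the others of KN5585_0h.

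In *ereb92*_6h vs KN5585_6h, edgeR called 0 of 43 tested members in either direction, against 0.815% up and 0.143% down among all genes, and DESeq2 called 0 up-regulated and 1 down-regulated (*orf99-d*), against 5.49% and 1.15%. At the unadjusted p, 0 were higher and 3 lower (*orf99-d*, *atp1-a1* and *orf129-a*), against 8.32% and 2.99% of all genes. The libraries did not overlap for 0 members upwards and for 4 downwards, these same 3 and *cob*, against 15.9% and 8.67%. Without *ereb92*_6h replicate 1 or KN5585_6h replicate 2, 1 member was lower at the unadjusted p, against 1.75% and 2.86% of all genes. The median log2 fold change over the 20 members with at least 1000 counts was -0.75, against -0.0011 over all genes tested, and 1 of the 20 was positive. *ereb92*_6h replicate 1 had the lowest non-rRNA mitochondrial share of its group. Over all 43 tested members the median was -0.72. It was -0.21 over the 52 members tested without that library, and -0.20 over the 47 tested without KN5585_6h replicate 2. The filter was applied anew in each fit, so these sets differ. How far the median of the 20 members rested on single libraries was not tested.

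Whether the time difference itself differed between genotypes was tested by the interaction term over all 12 libraries. Of 50 tested members, edgeR called 0 in either direction, against 0.0313% up and 0.0% down among all genes, and DESeq2 called 0 up and 2 down (*rps1* and *atp1-a1*), against 1.38% and 0.0588%. At the unadjusted p, 0 had a higher and 13 a lower term in *ereb92*, against 5.86% and 0.86% of all genes. The 13 were *cox1*, *cox2*, *cox3*, *nad4*, *nad7*, *atp1-a1*, *atp4*, *atp6*, *ccmFN*, *ccmB*, *rps1*, *rps7* and *orf99-d*, and their number was 8 without *ereb92*_0h replicate 2, against 0.815% of all genes. Of these, *ccmB* had only 59 counts in all, with 0, 0 and 0 in KN5585_0h, and *atp1-a1* had 4, 2 and 1 in KN5585_0h. Their terms thus rest on few counts. The term was -2.06 for *cox1* (SE 0.614, edgeR adjusted p = 0.338) and -2.59 for *rps1* (SE 0.703, edgeR adjusted p = 0.271). None passed the adjusted threshold in edgeR, so a smaller 6 h over 0 h difference in *ereb92* was not shown for any single member by that test. The comparisons within and between genotypes share their libraries, and KN5585_0h enters both the time comparison of KN5585 and the genotype comparison at 0 h. All members were measured in the same 12 libraries, so the 13 lower terms are not 13 separate results. The median term of the 50 tested members was -1.50, against 0.083 over all genes. Scaled to the mitochondrial counts without rRNA, it was 0.13, against 2.04 over all genes, so terms there are relative to the other mitochondrial genes.

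Both abundant rRNA genes carried the calls in the mutant. *rrn26* (Mt:400215-403766, plus strand) had 60673, 34098 and 2662 counts in *ereb92*_6h, 1368, 1396 and 1494 in *ereb92*_0h, 163088, 6685 and 3404 in KN5585_6h, and 35012, 1719 and 995 in KN5585_0h. The 3 *ereb92*_0h libraries were close to each other, and within each other group a single library or pair was far above the rest. *rrn26* rose in *ereb92* by a log2 fold change of 4.53 (SE 0.945, edgeR adjusted p = 0.0267), and *rrn18* by 3.64 (SE 0.798, edgeR adjusted p = 0.0328). With replicates blocked by number the edgeR adjusted p was 0.067 and 0.0727, and without *ereb92*_6h replicate 1, richest in nuclear rRNA, *rrn26* had 3.61 (edgeR adjusted p = 0.0723). Leaving out *ereb92*_6h replicate 2 or any *ereb92*_0h library also ended the call of *rrn26* (edgeR adjusted p = 0.0661 to 0.111). In KN5585 the log2 fold changes were 1.71 (SE 1.70) for *rrn26* and 1.76 (SE 1.54) for *rrn18*, and they turned to -1.65 and -1.36 without KN5585_6h replicate 1.

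Genes in the nucleus whose products work in mitochondria were counted beside the members, from lists made by words in the gene descriptions. Of 80 nuclear respiratory chain genes, 75 were tested in each time comparison. In KN5585_6h vs KN5585_0h their median log2 fold change was -0.04 with 0 called by edgeR, against 0.00449% up and 0.0% down among all genes. At the unadjusted p, 1 was higher and 3 lower, against 1.03% and 1.23% of all genes. DESeq2 called 0 up and 1 down, against 0.207% and 0.144%. Without overlap, 2 were higher and 5 lower, against 4.58% and 5.91%. In *ereb92*_6h vs *ereb92*_0h the median was -0.36 with 0 called by edgeR (5.87% and 0.106% of all genes), and 11 of the 75 were positive. At the unadjusted p, 1 was higher and 0 lower, against 11.0% and 0.878% of all genes. DESeq2 called 0, against 8.45% up and 0.399% down. Without overlap, 0 were higher and 15 lower, against 14.7% and 10.1%. The tested cox, nad and atp members were positive in both genotypes except *atp6* in *ereb92* (-0.72), while the median of the nuclear list was positive in neither. Of 500 genes for organelle RNA processing, mostly pentatricopeptide repeat proteins, 410 were tested in *ereb92*_6h vs *ereb92*_0h, with a median of 0.38. Of these 410 genes, 13 were up-regulated and 0 down-regulated by edgeR, against 5.87% and 0.106% of all genes, 55 were higher and 3 lower at the unadjusted p (11.0% and 0.878% of all genes), and DESeq2 called 32 up and 2 down (8.45% and 0.399%). Without overlap, 92 were higher and 15 lower, against 14.7% and 10.1%. There were 384 tested in KN5585_6h vs KN5585_0h, with 0 called by edgeR (0 higher and 1 lower at the unadjusted p, 0 by DESeq2) and a median of 0.03. Of these 384, 13 were higher and 12 lower without overlap, against 4.58% and 5.91%. In *ereb92*_6h vs KN5585_6h, 407 were tested, with a median of 0.62. There edgeR called 2 up and 0 down (0.815% and 0.143% of all genes), and 132 were higher and 8 lower without overlap (15.9% and 8.67%). Of 56 genes for mitochondrial import and ribosomes, 45 were tested in every comparison and 0 were called by edgeR in any. At the unadjusted p this was 0 but for 2 lower in *ereb92*_6h vs KN5585_6h, against 2.99% of all genes. DESeq2 called 1 down-regulated there, against 1.15%. Over the times, 0 of the 45 were higher and 9 lower without overlap in *ereb92*, against 14.7% and 10.1%, with a median of -0.29. In KN5585, 1 was higher and 3 lower without overlap, against 4.58% and 5.91%, with a median of -0.07.

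The minor classes added few counts. Group II intron features averaged 9.59 ± 8.14 CPM in *ereb92*_6h, 5.22 ± 2.21 in *ereb92*_0h, 5.86 ± 4.85 in KN5585_6h and 7.96 ± 0.780 in KN5585_0h (SD, n = 3 each). KN5585_6h replicate 1, with 0.258 CPM, lay far below both other libraries of its group, at 8.57 and 8.74 CPM. The tRNA genes averaged 3.87 ± 4.09, 1.05 ± 0.447, 2.97 ± 1.81 and 0.721 ± 0.195 CPM in the same order of groups, and the 5 genes derived from the chloroplast 1.08 ± 0.805, 0.277 ± 0.103, 1.11 ± 0.406 and 0.227 ± 0.212 CPM (SD, n = 3 each). None of these 5 had enough counts to be tested.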

How the data were processed

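Whole seeds of *ereb92* and KN5585 at 0 h and 6 h after imbibition were sequenced from poly(A)-selected RNA, in 4 groups of 3 samples taken from the labels. The authors aligned reads to the B73 maize reference and deposited whole-number counts per gene without normalization; strandedness and the treatment of reads with several matches are not stated. The submitters' processing notes name the mouse builds GRCm38 and mm10, whereas the gene identifiers and Mt coordinates are those of maize. The deposited FPKM values were made by the authors from the same counts and gene lengths and served only to compare levels between genes. The authors' group means, log2 fold changes and p-values of their own comparisons were not used. All per-sample columns were used (0 unused).

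Counts were tested with edgeR 4.0.16 in R 4.3.3 (filterByExpr, TMM, glmQLFit and glmQLFTest, Benjamini-Hochberg over all genes tested), each comparison on its own 6 samples, and the interaction on all 12. Members were called at an adjusted p under 0.05 and at least 2-fold. The SE of a gene's log2 fold change was derived from the test, as its absolute value divided by the square root of the quasi-likelihood F statistic. CPM used TMM library sizes. Shares were compared by exact permutation (scipy 1.17.1). DESeq2 1.42.0, other scalings and filters, the replicate block, one fit on all samples and leaving out each library were alternatives. Scripts were tested on simulated data. Same-numbered libraries had correlated deviations in *ereb92*_6h vs *ereb92*_0h (0.362, 0.248 and 0.178), so the numbers may pair them there, judged from the data and not from the labels. The main fits, their standard errors and the permutation tests given left this pairing out, and it entered only the replicate block.

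Any cox, nad, atp, cob, ccm, mat-r or rRNA member could be named; of the other classes, the 5 with most counts, those called, and the 3 with smallest unadjusted p per comparison. *orf109-a*, a neighbour, was named after its values were seen. Members and lists were chosen with earlier results of these data known. Counts cover sequenced reads, without molecular identifiers, and the p-values measure the spread between the samples of a group. No genome or sequence was used here.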

Additional observations from a re-analysis of the deposited data

How the results depend on the processing

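With low counts kept, edgeR called 7 of 107 tested members up-regulated over the times in *ereb92*, against 4.67% of all genes in that fit. It called 9 of 106 up-regulated in KN5585_6h vs KN5585_0h (0.0276% of all genes) and 1 of 104 in *ereb92*_0h vs KN5585_0h (0.344%). In *ereb92*_6h vs KN5585_6h it called 1 of 110 down-regulated, against 0.264% of all genes. The share in *ereb92* was thus near that of all genes. DESeq2 called 9, 13, 2 and 1 in the same comparisons, and 2 down in the interaction. One fit on all 12 samples called 0 in either time comparison. Leaving out single libraries gave 0 to 7 up-regulated members in *ereb92*, and 0 in KN5585 whichever library was left out (lowest and highest 0). With the replicate number as a block, KN5585_6h vs KN5585_0h had 0 called members, where the deviations of same-numbered libraries had a correlation of -0.009 on average; the number of calls changed in no other comparison, and in *ereb92* it was 2 but of other genes. The cause was not tested.

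The total mitochondrial share in *ereb92*_0h vs KN5585_0h turned to 1.08 without rRNA genes, and without single libraries it ranged from -1.12 to 0.58. In *ereb92*_6h vs KN5585_6h it ranged from -0.96 to 0.99.

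Scaling to all mitochondrial counts shifted the median of all genes to -1.999 in *ereb92* and -1.96 in KN5585 over the times, and scaling without rRNA to -0.18 and -2.16, so signs under them are relative to the other mitochondrial genes. In *ereb92*, scaling to all mitochondrial counts gave *cox1* -1.26, *cox2* -1.48, *nad4* -0.62, *nad7* -0.28, *atp1-a1* -0.77, *atp4* -0.15, *ccmFN* -0.11, *ccmC* -0.0080 and *rps7* -0.89, and scaling without rRNA gave *cox1* -0.0094 and *cox2* -0.18. In KN5585 the values were -0.082 and -0.41 for *cox2*, -1.03 and -1.11 for *atp6*, -0.046 and -0.49 for *rrn26*, -0.33 and -0.44 for *rrn18*, and -1.17 and -1.31 for *orf147-b*. Without single libraries, *cox2* in *ereb92* ranged from -0.18 to 0.59 (-0.056 without *ereb92*_6h replicate 2), and in KN5585 *rrn26* ranged from -1.65 to 5.31 and *rrn18* from -1.36 to 4.49, the lowest without KN5585_6h replicate 1 and the highest without KN5585_0h replicate 1.

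At 3 libraries a group and fewer than 100 counts for 66 members, differences in most ORFs were not detectable at this depth.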
